A study of Homo sapiens with 14 samples.

Results

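The genes described here are 8 human globin genes, HBE1, HBG1, HBG2, HBD, HBZ, HBA1, HBA2 and HBQ1, chosen by name and followed across 5 groups of K562 cells. All 8 are listed among the 26171 entries of the K562 expression table, and all 8 passed the filter that left 12524 genes for testing. All 8 are also listed among the 19196 genes of the table for SIGM5 cells, where 5 of them had no count in any library. Values in K562 were taken as FPKM, fragments scaled by transcript length and library size, so that levels can be set side by side between genes.

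Haemoglobin carries oxygen and is built from paired alpha-like and beta-like chains, each holding a haem group. Each family is encoded by a cluster of genes that are switched during development: the embryonic chains zeta (HBZ) and epsilon (HBE1) come first, the fetal gamma chains (HBG1 and HBG2) pair with the alpha chains (HBA1 and HBA2), and delta (HBD) is a minor chain of adult red cells. HBQ1 encodes theta, an alpha-like gene that is transcribed in erythroid cells but whose chain has no established place in haemoglobin. K562, a line from a patient with chronic myeloid leukaemia in blast crisis, is known for making embryonic and fetal rather than adult haemoglobin.

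Messenger RNA was sequenced after 24 h of treatment, in a study that asked what blocking TET dioxygenases, enzymes that oxidise 5-methylcytosine in DNA, does to leukaemia cells. The K562 groups had 2 libraries each. The clone K01 (TET2+/+ in the series text) received 12.5 µM TETi76, a TET inhibitor; 100 µM ascorbate, which is known as a cofactor of TET enzymes; both agents together; or DMSO alone. The clone K18, labelled TET2-/-, received DMSO alone. SIGM5, an acute myeloid leukaemia line, received 12.5 µM TETi76 or DMSO, again with 2 libraries each. Each TET2 genotype was 1 clone, so genotype and clone cannot be told apart, and the labels do not say whether the numbered replicates were separate cultures. The p-values given measure the spread between these libraries, which may be technical.

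K562 libraries held an estimated 4.5 to 8.89 M reads (M, mega), and SIGM5 libraries 18893636 to 23639198 counts. TET2 itself had 3.31 and 2.95 FPKM in K18 cells, against 1.99 and 2.40 FPKM in K01 cells given DMSO (log2 difference 0.37, limma adjusted p = 0.314). The position of the edit is not given in the sources used here, so this gene-level value does not check the K18 label. Of 8 erythroid markers, 8 were at 1 FPKM or more in all 10 K562 libraries, including GATA1. Of 5 megakaryocytic markers 1 was, PF4 was at 0, and so were the progenitor marker CD34 and the B-cell marker MS4A1. In SIGM5 the erythroid markers were mixed: GYPB had no counts and GATA1, KLF1 and ALAS2 had at most 0.786 CPM (counts scaled to library size), while TFRC had 440 to 512, NFE2 38.3 to 51.1 and EPOR 6.51 to 8.05 CPM. The myeloid gene MPO had at least 8021 CPM there.

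Apart from HBQ1 and HBD, the globins were among the most abundant transcripts in K562. HBE1 averaged 3688 FPKM over the 10 libraries. It stood at the 99.97th percentile of the entries left without short RNAs and entries with a number for a name. The 2 gamma genes followed, HBG2 at 1759 and HBG1 at 1083 FPKM, then HBZ at 847, HBA1 at 311 and HBA2 at 144 FPKM. The gamma and alpha genes share sequence with their copies, and how such reads were counted is not given. HBQ1 at 19.7 and HBD at 11.03 FPKM were the lowest of the 8, at the 84.0th and 75.9th percentiles. The spread over libraries was widest for the 2 lowest genes: the highest library exceeded the lowest by 14.5-fold for HBQ1 and 10.1-fold for HBD, by 4.28-fold for HBE1, and by 1.52-fold for HBG2. K18 cells had the lowest group mean of 6 of the 8 genes, and K01 cells given TETi76 with ascorbate had the lowest mean of the other 2, HBZ and HBQ1. The plot of FPKM by library shows these patterns.

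**Figure D1:**
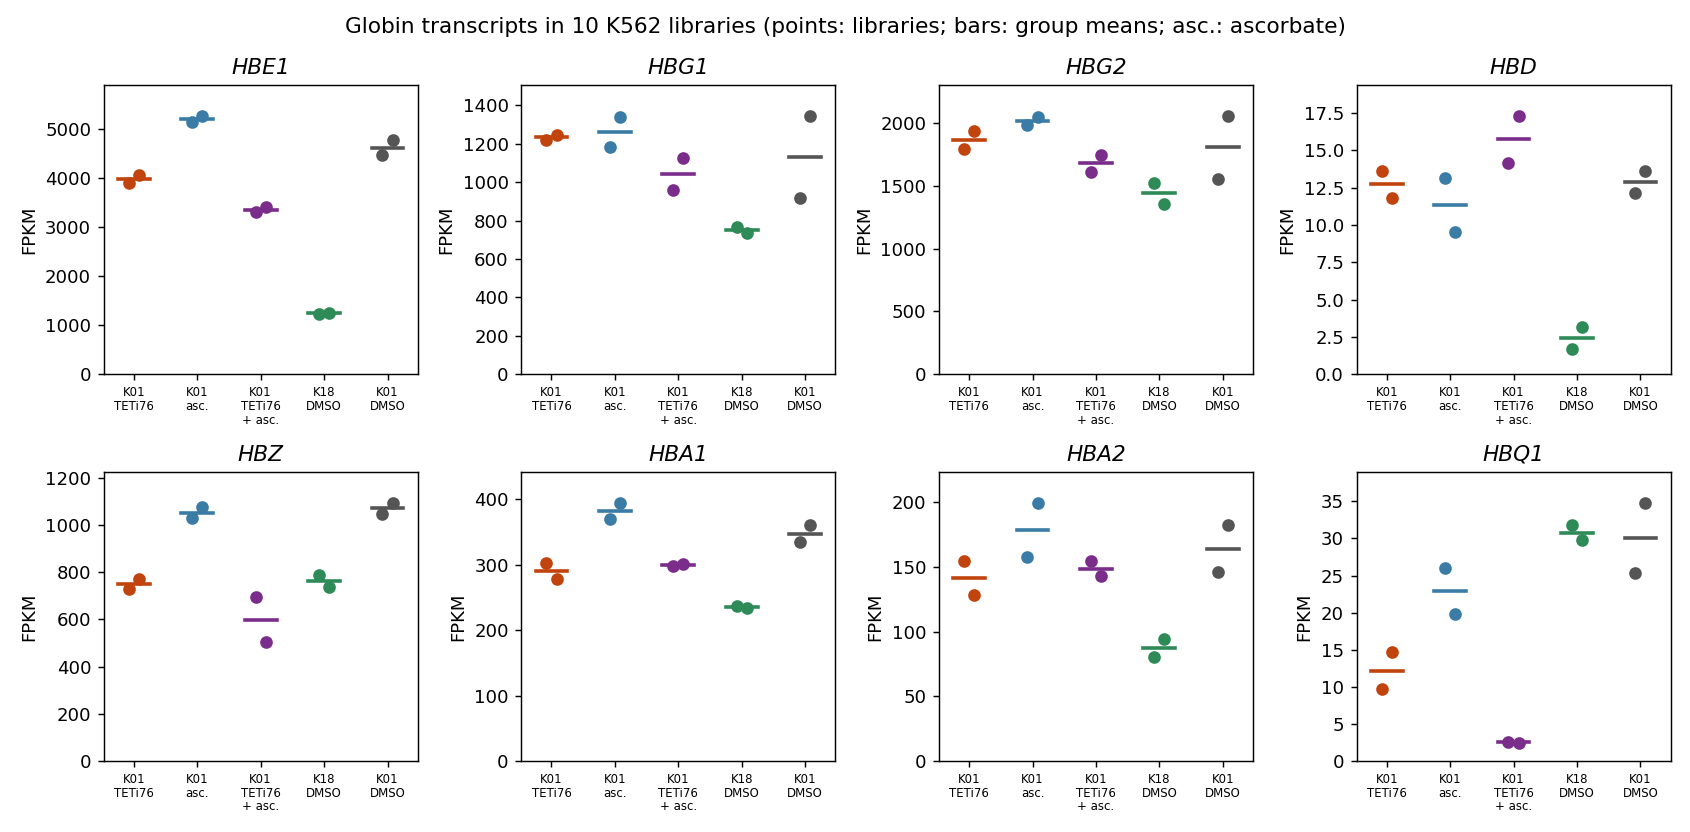
FPKM of each globin gene (vertical axes, linear and starting at 0) in the 5 K562 groups; points are the 2 libraries of a group and bars their mean. HBE1 and HBD were lowest in K18 cells, at 1233 to 1255 and 1.72 to 3.19 FPKM, and HBQ1 was lowest with TETi76 and ascorbate, at 2.41 and 2.63 FPKM.

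TETi76 lowered 4 of the 8 globin transcripts in K01 cells, against 13.7% of all genes tested that were called lower and 23.3% called in either direction (limma on log2(FPKM + 1), Benjamini-Hochberg adjusted p under 0.05). They were HBE1, HBZ, HBA1 and HBQ1, with log2 differences from -1.25 to -0.21, and none of the 8 was called higher. Ascorbate alone left 0 of 8 called by limma, with 2 at an unadjusted p under 0.05 and 0.479% of all genes called. TETi76 with ascorbate lowered the 4 genes HBE1, HBZ, HBA1 and HBQ1 against DMSO, where 17.7% of all genes were called lower and 31.0% in either direction, and the same 4 against ascorbate alone, where the shares were 17.8% and 30.7%. K18 cells had 6 of 8 transcripts lower than K01 cells, all but HBG2 and HBQ1, against 8.21% of all genes called lower and 15.1% in either direction. Reads can be shared between HBG1 and HBG2 and between HBA1 and HBA2, so the 8 are not 8 separate measurements. Some calls in these comparisons were lost when copies were summed or a library was left out, as given below. The median log2 difference of the 8 genes was -0.21 for TETi76, 0.13 for ascorbate, -0.17 and -0.32 for the combination against DMSO and against ascorbate, and -0.56 for K18, while the median of all genes tested lay between -0.01 and 0.00 in each. The TETi76, ascorbate, combination and K18 comparisons against DMSO share their 2 K01 DMSO libraries. With the libraries scaled to a common sum without the globins, the calls over all genes for K18 were 1061 higher and 713 lower in place of 859 and 1028, and for the combination against ascorbate 1982 and 1798 in place of 1611 and 2235, while the number of globins called in these comparisons stayed at 6 and 4. In bulk RNA, fewer cells of a type and less RNA per cell cannot be told apart.

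**Figure D2:**
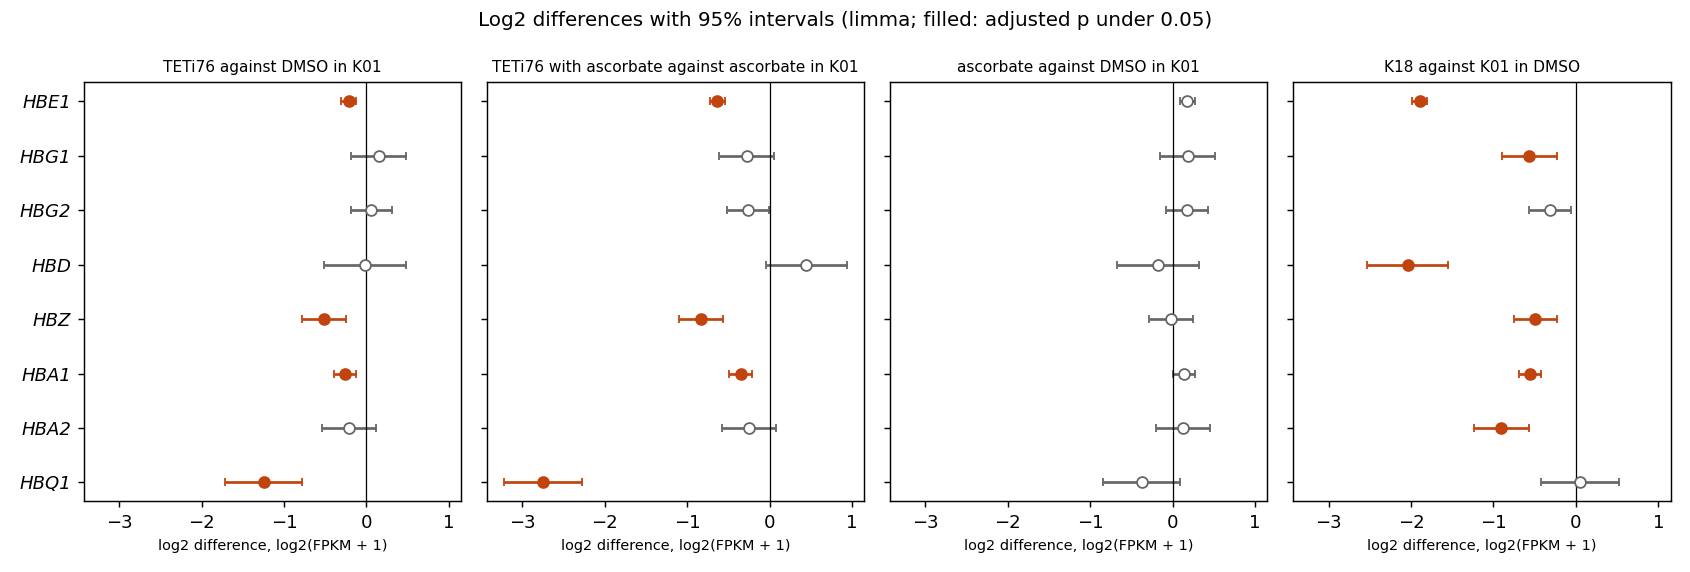
Log2 difference (horizontal axes, on log2(FPKM + 1)) of each globin gene in 4 comparisons, with 95% intervals from limma; filled points passed an adjusted p of 0.05. HBQ1 moved most under TETi76 with or without ascorbate, at -2.75 and -1.25, and HBD and HBE1 in K18 cells, at -2.04 and -1.89.

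HBE1, the embryonic beta-like chain, was lower with TETi76 and lowest in K18 cells. It had 3912 and 4063 FPKM in K01 cells given TETi76, 5161 and 5275 with ascorbate, 3306 and 3413 with both, and 1233 and 1255 in K18 cells, against 4472 and 4787 in K01 cells given DMSO. No 2 of the 5 groups overlapped. It fell by 0.21 with TETi76 against DMSO on the log2 scale (SE 0.04, adjusted p = 0.00516), which is a ratio of 0.861 between the means. With ascorbate in both arms the difference was -0.64 (SE 0.04, adjusted p = 7.96e-06), and the combination against DMSO gave -0.46 (adjusted p = 4.36e-05). Ascorbate alone gave 0.17 against DMSO, which did not pass (adjusted p = 0.140). In K18 cells HBE1 was 3.72-fold lower than in K01 cells (log2 -1.89, SE 0.04, 95% interval -1.99 to -1.80, adjusted p = 1.41e-08).

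HBE1 was the 1 globin of 8 called for a TETi76 response that differed by ascorbate, where 0.639% of all genes were called. The interaction, TETi76 with ascorbate over ascorbate minus TETi76 over DMSO, was -0.42 (SE 0.06, 95% interval -0.55 to -0.29, limma adjusted p = 0.0196). The call rested on few libraries: it was lost without either TETi76 library, either ascorbate library or the first DMSO library, with adjusted p from 0.0594 to 0.0825, while the difference stayed between -0.47 and -0.37. HBQ1 had a larger interaction with a larger error, -1.50 (SE 0.30, adjusted p = 0.0624).

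The fetal gamma genes were called in no TETi76 or ascorbate comparison, and HBG1 was called lower in K18 cells. HBG1 had 1217 and 1247 FPKM with TETi76, 1184 and 1339 with ascorbate, 958 and 1123 with both, and 769 and 735 in K18 cells, against 918 and 1344 in K01 cells given DMSO. HBG2 had 1792 and 1936 FPKM with TETi76, 1981 and 2046 with ascorbate, 1607 and 1745 with both, and 1520 and 1355 in K18 cells, against 1553 and 2053 in K01 cells given DMSO. The 2 DMSO libraries spanned the values of both genes in TETi76 cells, and K18 lay below both of them for each gene. Against DMSO, TETi76 gave 0.15 for HBG1 (95% interval -0.19 to 0.48, adjusted p = 0.517) and 0.06 for HBG2 (95% interval -0.19 to 0.31, adjusted p = 0.742). In K18 cells HBG1 was lower by limma (log2 -0.56, SE 0.15, adjusted p = 0.0334) and HBG2 did not pass (-0.32, adjusted p = 0.0945).

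The 2 gamma transcripts are near-identical copies, and their reads can be split between them: 50.1% of the 50-base windows of the longest HBG1 transcript in GENCODE v29 also occur in HBG2, and 34.3% of those of HBG2 in HBG1. Summed, they had 2289 and 2090 FPKM in K18 cells, against 2471 and 3397 FPKM in K01 cells given DMSO, and the difference did not pass (log2 -0.41, adjusted p = 0.0573). The HBG1 call in K18 was also lost without either K18 library or the second DMSO library (adjusted p 0.112 to 0.160), with no filter on low values (0.0723) and in a fit of these 2 groups alone (0.0624). Without the first DMSO library HBG2 was called lower too (adjusted p = 0.00747). Without the second DMSO library HBG1 was called higher with TETi76 (log2 0.42, adjusted p = 0.0269). Without the first DMSO library both genes were called lower with both agents against DMSO, HBG1 at -0.37 (adjusted p = 0.0300) and HBG2 at -0.29 (0.0335). HBG2 was also called lower with both agents against ascorbate in a fit of those groups alone (-0.27, adjusted p = 0.0135), and its difference there was negative in every alternative run.

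HBD, the minor adult chain, was the other transcript that fell far in K18 cells. It had 13.6 and 11.8 FPKM with TETi76, 13.2 and 9.56 with ascorbate, 14.2 and 17.3 with both, and 1.72 and 3.19 in K18 cells, against 12.2 and 13.6 in K01 cells given DMSO. The K18 values correspond to about 10 and 22 reads, and the DMSO values to about 87 and 75. HBD was 5.26-fold lower in K18 cells (log2 -2.04, SE 0.22, 95% interval -2.53 to -1.55, adjusted p = 0.000378). It was not called in any TETi76 or ascorbate comparison, and against DMSO TETi76 gave -0.02 (95% interval -0.51 to 0.47, adjusted p = 0.967).

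HBD is the only one of the 8 genes with an entry in the RefSeq promoter table used here, and its promoter is shown because this gene and HBE1 moved most in K18 cells. The 250 bases before its annotated start lie at chr11:5234484-5234733 of GRCh38.p14, on the minus strand, printed 5′ to 3′ with the motifs found in capitals.
HBD promoter: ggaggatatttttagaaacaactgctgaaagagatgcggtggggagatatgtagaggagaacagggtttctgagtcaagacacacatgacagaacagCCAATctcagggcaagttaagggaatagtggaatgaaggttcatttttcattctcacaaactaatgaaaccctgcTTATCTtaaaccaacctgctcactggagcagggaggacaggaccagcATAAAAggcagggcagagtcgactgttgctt
Each of 4 motifs was searched on both strands. The letters CCAAT were found only on the gene strand at positions -153 to -149, counted from the base before the start as -1. They occur in 32.0% of 35116 promoter windows of the same length. Whether this match is the CCAAT box known from globin promoters was not tested. The letters AGATAA, to which GATA factors bind, were found on the opposite strand at -78 to -73, where the printed strand is in capitals (9.17% of windows). A box resembling the TATA element, spelled ATAAAA, was found at -31 to -26 (14.8%). The letters CACCC, a motif bound by KLF1, were not found among these letters on either strand and occur in 54.7% of windows. The motifs do not overlap, and a match is a description of the letters only.

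HBZ, the embryonic alpha-like chain, was lower with TETi76 and in K18 cells. It had 729 and 771 FPKM with TETi76, 1028 and 1077 with ascorbate, 693 and 503 with both, and 787 and 737 in K18 cells, against 1047 and 1094 in K01 cells given DMSO. The ascorbate and DMSO libraries overlapped and lay above the other 6. With TETi76 HBZ fell by 0.51 against DMSO (log2, SE 0.12, adjusted p = 0.0134) and, with ascorbate in both arms, fell by 0.83 (SE 0.12, adjusted p = 0.000829). The combination against DMSO gave -0.86 (adjusted p = 0.000647). In K18 cells HBZ gave -0.49 (SE 0.12, adjusted p = 0.0228). That K18 call was lost without any 1 of the 4 libraries (adjusted p 0.0753 to 0.138), with quantile normalization (0.0518) and with no filter on low values (0.0511), and the TETi76 call was lost without 2 of its 4 libraries, with adjusted p up to 0.0748.

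Both alpha genes were lower in K18 cells, and HBA1 was also lower with TETi76. HBA1 had 303 and 279 FPKM with TETi76, 370 and 395 with ascorbate, 298 and 301 with both, and 237 and 233 in K18 cells, against 335 and 361 in K01 cells given DMSO. HBA2 had 154 and 128 FPKM with TETi76, 158 and 199 with ascorbate, 154 and 143 with both, and 80.1 and 94.0 in K18 cells, against 146 and 182 in K01 cells given DMSO. K18 was below every K01 library for both genes, whereas the TETi76 and DMSO libraries overlapped for HBA2. HBA1 was lower with TETi76 (log2 -0.26, SE 0.06, adjusted p = 0.0143), with both agents against ascorbate (-0.35, adjusted p = 0.00228) and against DMSO (-0.21, adjusted p = 0.0239), and in K18 cells (-0.56, adjusted p = 0.000376). HBA2 was called in K18 cells (-0.90, SE 0.15, adjusted p = 0.00347), and TETi76 gave -0.21 (95% interval -0.54 to 0.12, adjusted p = 0.335).

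HBA1 and HBA2 share most of their sequence, 81.6% and 81.8% of their 50-base windows, so their reads can be split between them too. Summed, they were lower in K18 cells (log2 -0.66, adjusted p = 0.000698) and with both agents against ascorbate (-0.32, adjusted p = 0.0144). The sum did not pass for TETi76 against DMSO (-0.24, adjusted p = 0.0562) or for both agents against DMSO (-0.19, adjusted p = 0.105). The HBA1 call for TETi76 was lost without the second TETi76 or the second DMSO library (adjusted p = 0.0994 and 0.0938). That for both agents against DMSO was lost without any 1 of 3 libraries, with a common sum without the globins (0.0788) and in a fit of those groups alone (0.0512).

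HBQ1, theta, had the largest TETi76 response of the 8 and did not move in K18 cells beyond its error. It had 9.66 and 14.7 FPKM with TETi76, 26.0 and 19.8 with ascorbate, 2.63 and 2.41 with both, and 31.8 and 29.7 in K18 cells, against 25.3 and 34.8 in K01 cells given DMSO. The combination libraries lay below both TETi76 libraries, which lay below all others; the K18 and DMSO libraries overlapped. With TETi76 HBQ1 fell by 1.25 on the log2 scale (SE 0.21, 95% interval -1.72 to -0.78, adjusted p = 0.00282), 2.47-fold between the means. With ascorbate in both arms it was 9.08-fold lower (log2 -2.75, SE 0.21, adjusted p = 2.13e-05), and both agents against DMSO gave 11.9-fold (log2 -3.13, adjusted p = 8.16e-06). The combination libraries held only about 6 and 9 HBQ1 reads, against about 121 and 127 in the DMSO libraries, and the added 1 FPKM makes the log2 values smaller than the plain ratios. K18 gave 0.05 against K01 (95% interval -0.42 to 0.52, adjusted p = 0.912).

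Within each library, the make-up of the summed RNA of the beta-like genes followed here differed between the clones. The adult beta gene HBB is not among the 8 genes and is in none of these sums. HBE1 was 35.0% and 37.5% of the summed FPKM of HBE1, HBG1, HBG2 and HBD in K18 cells, against 64.3% and 58.4% in K01 cells given DMSO, and HBG1 with HBG2 took nearly all of the rest. With TETi76 the HBE1 share was 56.4% and 56.0%, below both DMSO libraries, and with both agents 56.2% and 54.2%, below both ascorbate libraries at 61.9% and 60.8%. These shares do not depend on how libraries are scaled to each other; with 2 libraries a group an exact two-sided permutation test cannot go below 0.333, and no test is given for them. How reads common to gene copies were counted is not given in the sources used here. Shares and ratios that set the gamma or alpha gene copies against other genes may depend on it. The ratio of beta-like to alpha-like FPKM was 3.10 and 3.06 in K18 cells, against 4.48 and 4.90 in K01 cells given DMSO. It was 5.80 and 6.08 with TETi76, 5.27 and 5.13 with ascorbate, and 5.13 and 6.63 with both, each above the DMSO libraries. The 8 genes summed to 4551 FPKM in K18 cells, 8291 with TETi76, 10141 with ascorbate and 7141 with both, against 9189 FPKM with DMSO (means, n = 2).

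**Figure D3:**
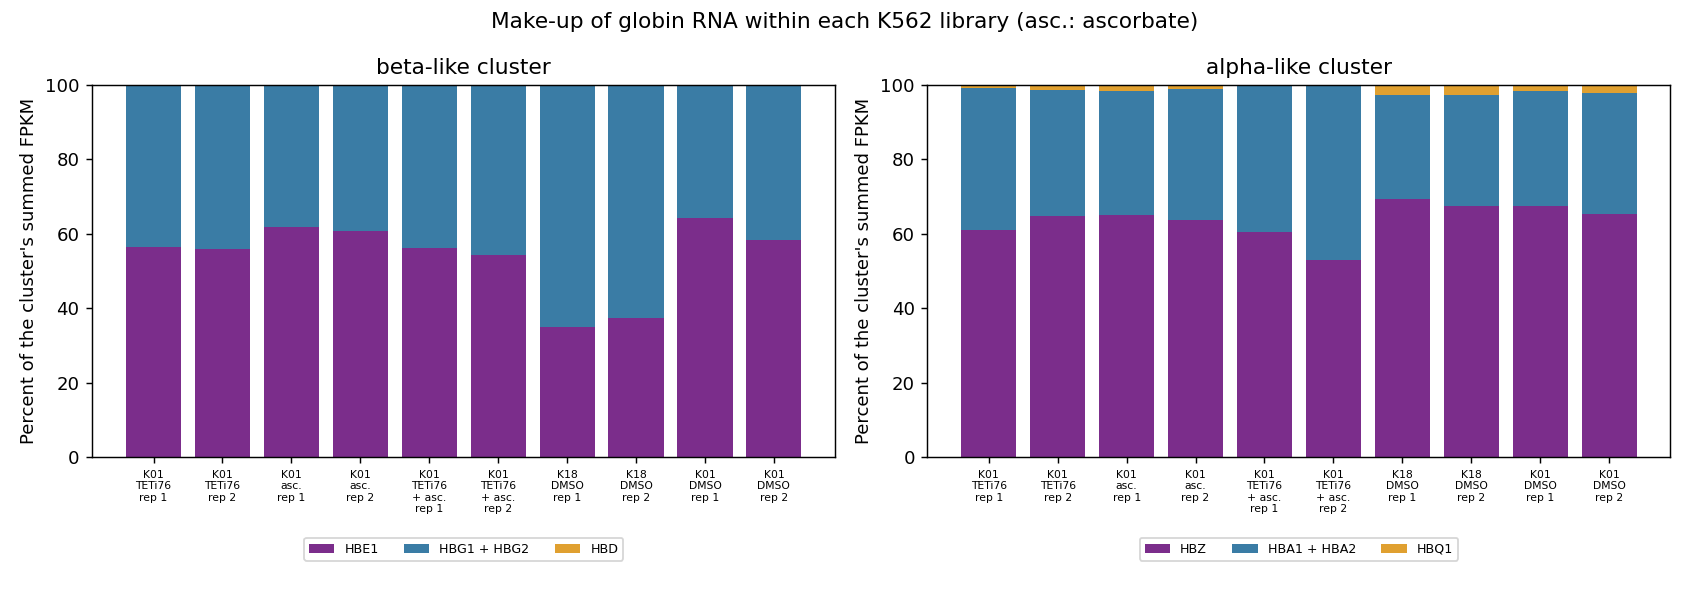
Percent of the summed FPKM of the 4 beta-like (left) and 4 alpha-like genes (right) taken by each gene or gene pair in every K562 library; bars add up to 100. The HBE1 part was 35.0% and 37.5% in the K18 libraries and 54.2% to 64.3% in the K01 libraries, while HBZ took 53.0% to 69.3% of alpha-like RNA in all 10.

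The 8 genes follow each other in the order HBD, HBG1, HBG2, HBE1 on chromosome 11 and HBZ, HBA2, HBA1, HBQ1 on chromosome 16. HBBP1, a globin pseudogene between HBD and HBG1 that overlaps the annotated HBD locus on the same strand, had 21.5 and 27.2 FPKM in K18 cells, against 70.3 and 58.6 FPKM in K01 cells given DMSO (log2 -1.37, adjusted p = 0.000417). HBBP1 was lower with TETi76 as well (-0.91, adjusted p = 0.00267), where HBD gave -0.02. Beyond HBE1, the olfactory receptor genes OR51B4 and OR51B5 were lower in K18 cells (log2 -1.39 for each, adjusted p = 0.00102 and 5.89e-05). OR51B5 was lower with TETi76 as well (-0.64, adjusted p = 0.00264), where HBE1 gave -0.21. The annotated extents of HBE1 and HBG2 run across both receptor genes on the same strand, and whether reads were shared between them was not tested. On chromosome 16, NPRL3, whose introns hold the alpha-globin enhancers, was lower with TETi76 (-0.80, adjusted p = 0.00179) and in K18 cells (-0.44, adjusted p = 0.0409). LUC7L, next to HBQ1, was called in none of the comparisons, at 0.23 for TETi76 (adjusted p = 0.340). These neighbours were chosen after the globin values were known. The 12 flanking genes were the nearest protein-coding genes that passed the filter, so nearer genes that were not tested were skipped. Of the 12, 0 were higher and 4 lower with TETi76 (23.3% of all genes called in either direction), and 0 were higher and 3 lower in K18 cells (15.1%). Among the 4 was OR52A5, which had at most 2.36 FPKM in any library. With both agents 3 were higher and 5 lower against DMSO (31.0%), and 1 was higher and 3 lower against ascorbate (30.7%). The 1 higher in both of these was TRIM21 (1.07 and 0.95), and TRIM68 (0.49) and RHBDF1 (1.14) were higher against DMSO.

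Among the genes nearest to each globin by level across the 10 libraries (root mean square distance of centred log2 values, 6092 candidate genes with a mean of at least 10 FPKM), HBE1 lay nearest to HRC, at 0.18, and KRT10, at 0.19. HBD lay nearest to ITGB5, at 0.21, and AKR1C2, at 0.29. For HBQ1 the nearest were HAGHL, at 0.31, and KLF1, at 0.44, and 0% of candidates lay within 0.3. The other 5 genes varied less than HBE1, HBD and HBQ1 and had more near genes, from 7.39% of candidates within 0.3 for HBA2 to 61.1% for HBG2. HAGHL had 4.80 and 8.17 FPKM with TETi76, 15.1 and 14.8 with ascorbate, 1.21 and 2.43 with both, and 15.7 and 18.5 in K18 cells, against 13.4 and 15.3 in K01 cells given DMSO.

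**Figure D4:**
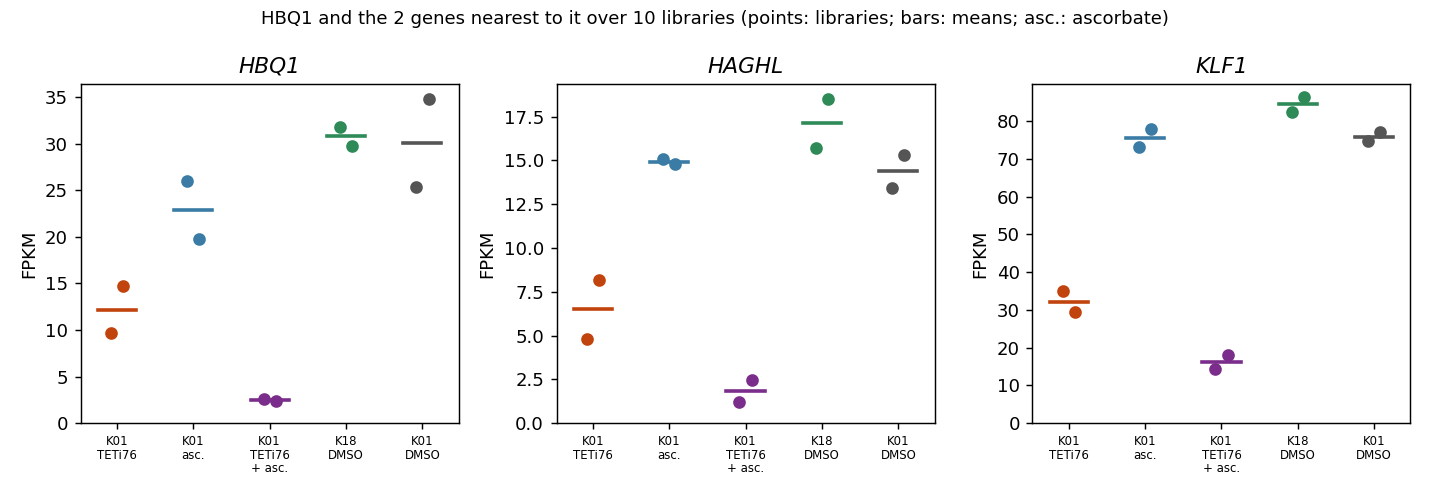
FPKM of HBQ1 and of its 2 nearest genes, HAGHL and KLF1, in the 5 K562 groups (vertical axes start at 0); points are libraries and bars group means. All 3 were lowest with TETi76 and ascorbate, at 2.41 and 2.63, 1.21 and 2.43, and 14.4 and 18.1 FPKM, next lowest with TETi76, and not lower in K18 cells than in K01 cells given DMSO.

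KLF1 is an erythroid transcription factor that binds CACCC boxes of globin promoters. It had 35.0 and 29.3 FPKM with TETi76, 73.0 and 77.9 with ascorbate, 14.4 and 18.1 with both, and 82.5 and 86.3 in K18 cells, against 74.7 and 77.0 in K01 cells given DMSO. KLF1 was lower with TETi76 (log2 -1.22, adjusted p = 0.000108) and with both agents against ascorbate (-2.15), and its interaction with ascorbate was called as well (-0.94, adjusted p = 0.0465). Of 28 listed regulators of globin genes, 27 were tested. With TETi76 5 were higher and 12 lower (median log2 -0.38), where 23.3% of all genes were called in either direction. With both agents against ascorbate 4 were higher and 12 lower (30.7% of all genes), and with ascorbate alone 0 and 0 (0.479%). In K18 cells 2 were higher and 5 lower (median -0.04), where 15.1% of all genes were called.

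Besides KLF1, the listed regulators that fell most with TETi76 were ATF4 (-1.21), LMO2 (-1.05) and MYB (-0.90). ATF4 is the factor of the integrated stress response, LMO2 a bridge in the GATA1 and TAL1 complex, and MYB a repressor of gamma globin. The 5 called higher with TETi76 were ZNF410 (0.59), NR2F2 (0.50), BACH1 (0.49), ZBTB7A (0.43) and GATA2 (0.40). NFE2, which binds globin enhancers, was lower with both agents against ascorbate (-1.26). In K18 cells GATA2, a factor of blood progenitors, was higher (0.65, adjusted p = 0.000669). NR2F2, a nuclear receptor known to repress embryonic and gamma globin, was lower there (-0.57, adjusted p = 0.00489), as were NFE2 (-0.46) and ATF4 (-0.44). The summed level of the 8 erythroid markers was 467 to 475 FPKM with TETi76, 665 to 691 with ascorbate, 361 to 375 with both and 585 to 599 in K18 cells, against 647 to 649 FPKM in K01 cells given DMSO. Of these 8 markers, 5 are also in the lists of regulators or haem genes. The sum moved with HBE1, HBZ and HBQ1 under TETi76, and its part in those results was not tested. Single markers among these 5 did not all follow it. With TETi76 the mean of TFRC was higher (101 against 87.3 FPKM), and those of KLF1, GATA1, NFE2 and ALAS2 were lower. In K18 cells the mean of NFE2 was lower (111 against 152 FPKM), and those of KLF1, TFRC, GATA1 and ALAS2 were higher. The 5 megakaryocytic markers summed to 9.70 to 10.5 FPKM in K18 cells, against 2.59 to 3.36 in K01 cells given DMSO, of which only ITGA2B was at 1 FPKM or more in every library. Of 8 myelomonocytic markers 3 were, and the 8 summed to 64.9 to 73.7 FPKM with TETi76 and 57.1 to 64.1 in K18 cells, against 45.0 to 52.9 with DMSO, while 0 of 4 lymphoid markers reached that level in every library. The 3 stem and progenitor markers summed to 41.3 to 43.3 FPKM with TETi76, against 77.8 to 81.6 with DMSO. Nearly all of this was MYB, at 43.2 and 41.3 FPKM against 77.7 and 81.5, and CD34 was at 0. The part of these markers in the globin results was not tested.

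Haemoglobin also needs haem, and of 15 listed genes for its synthesis, iron supply and chain assembly 14 were tested. With TETi76 1 was higher and 10 lower (median log2 -0.53), where 23.3% of all genes were called in either direction. With both agents against ascorbate 0 were higher and 10 lower (30.7% of all genes), with ascorbate 1 and 0 (0.479%), and in K18 cells 1 and 5 (15.1%). The haem-synthesis enzymes UROD (-0.91) and PPOX (-1.10), and the mitochondrial carrier ABCB10 (-0.75), fell with TETi76. In K18 cells PPOX (-0.68) and FECH, which inserts iron into haem (-0.62), were lower. AHSP, the chaperone of free alpha chains, had 6.51 and 1.34 FPKM with both agents, against 18.6 and 8.53 FPKM with ascorbate (log2 -1.71, SE 0.55, adjusted p = 0.0425). It was low with TETi76 alone as well, at 1.74 and 0.42 FPKM, against 7.52 and 12.1 FPKM with DMSO. TFRC, the transferrin receptor that brings iron into the cell, was higher with ascorbate alone (0.39, adjusted p = 0.0284), with TETi76 (0.21, adjusted p = 0.0269) and in K18 cells (0.40, adjusted p = 0.00218), but lower with both agents against ascorbate (-0.71), and its interaction was called (-0.93, adjusted p = 0.0106). Of 4 further globin genes listed, HBM, MB, CYGB and NGB, 0 passed the filter.

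In SIGM5 cells globin RNA was close to absent. HBE1, HBG1, HBG2, HBD and HBZ had 0 counts in all 4 libraries, which allows up to 0.159 CPM in the shallowest library (3 counts). HBA1 had 1 count and HBA2 had 3 over the 4 libraries. HBQ1 had 18 and 17 counts with TETi76, against 13 and 41 counts with DMSO, so the groups overlapped. It was the 1 globin that passed the filter, and 0 of the 8 were called by edgeR's quasi-likelihood test, with 0 at an unadjusted p under 0.05, where 4.13% of all genes were called. The HBQ1 difference was -0.82 on the log2 scale (edgeR adjusted p = 0.413), and it turned to 0.086 without the second DMSO library. DESeq2 called 0 of the 8 as well, and CPM here cannot be set beside FPKM in K562.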

How the data were processed

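Per the labels' protocols, RNA was enriched with oligo(dT) beads and made into libraries with random hexamers; strand-specific counting is not given in the sources used here. The deposited K562 matrix is named as counts but holds decimals, which were taken as FPKM from their properties. Whether fragments or single reads were scaled cannot be told from the values. The deposited SIGM5 values are raw read counts per gene. The submitters' processing notes name limma 3.38.3, edgeR 3.24.3, STAR and the hg19 build, with no role for any of them, and the quantifier that made the FPKM is not given in the sources used here. Because the K562 values were not counts, they were tested on a log scale. Single-library values equalled the matrix columns in 10 of 10 K562 and 4 of 4 SIGM5 libraries, 0 columns were left unused, and 0 pairs of libraries were identical. Replicates correlated at 0.987 or more (Pearson r of log2 values).

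In K562, 2283 short-RNA entries (36.8% to 41.1% of the FPKM sum of a library) and 26 entries with a number for a name were left out. Genes at 1 FPKM or more in at least 2 libraries entered 1 limma 3.58.1 fit (trend, robust) of 5 groups and 10 libraries on log2(FPKM + 1), with 5 residual degrees of freedom before moderation. The pseudocount understates the change of low genes. For the SIGM5 counts, edgeR 4.0.16 was run with its quasi-likelihood test after TMM scaling and filterByExpr (11340 genes). Adjustment was by Benjamini-Hochberg over all genes tested, on two-sided p-values, with a threshold of 0.05; intervals are 95%. Both procedures were tested on simulated data. For K562 the planted changes exceeded most globin differences given here, so small differences were not covered. K562 depth was estimated from the value of 1 read in low genes with a single transcript and depends on assumed lengths, so read numbers are approximate. The limit that a count of 0 allows (3 counts) covers counting error only. Transcript windows and overlaps came from GENCODE v29, gene order and the promoter from RefSeq (GRCh38.p14), of which 1 of 8 globins had a promoter entry.

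Alternatives were a pseudocount of 0.1 or 5, no filter or a filter of 5 FPKM, median-ratio and quantile scaling, a common sum without the globins, summed gene copies, the groups of a comparison alone, a replicate block, and each library left out. For SIGM5 they were no filter, DESeq2 1.42.0, a replicate block and, chosen after seeing the data, a crossed block. The named genes were the 8 globins, up to 4 called genes of each list (regulators, haem) per comparison with the largest change and a mean of at least 10 FPKM in the higher group, and the 2 nearest genes of a globin. The genes flanking the clusters and the regulators higher with TETi76 were chosen after values were seen. So were the AHSP and TFRC values with TETi76 and the single erythroid and progenitor markers set beside their sums. Some genes of these lists are not reported here. The globins and the lists were chosen with earlier results of these data known.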

Additional observations from a re-analysis of the deposited data

Results flagged for a closer look

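HBE1 is listed because its TETi76 response differed between K01 cells with and without ascorbate by the test of the difference itself. The interaction was -0.42 on the log2 scale (SE 0.06, limma adjusted p = 0.0196, with -0.64 against ascorbate and -0.21 against DMSO). In each setting both libraries with TETi76 lay below both comparison libraries. The call was lost in 5 of the 8 fits that each left out 1 library.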

How the results depend on the processing

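Of 49 comparisons of single globins, 19 were called. All 19 kept their direction under every alternative run, and 13 also kept their side of the threshold in each; the 6 that did not are HBG1 and HBZ in K18, HBZ and HBA1 with TETi76, HBA1 with both agents against DMSO and the HBE1 interaction, whose values stand beside the results. Counts of globins called stayed within 1.5 times except for the interaction, 1 as reported, 2 with a pseudocount of 0.1, 2 with a filter of 5 FPKM, and 0 to 2 with 1 library left out; the added gene was HBQ1 at the pseudocount and filter settings (adjusted p = 0.0464 and 0.0384) and HBZ without the first library with both agents (-0.55, adjusted p = 0.0383, against -0.32 and 0.454 as reported). In all, 7 uncalled results were called in some alternative: these 2 and the 5 of HBG1 and HBG2 given beside the results. All differences that changed sign were uncalled in the reported fit. With quantile normalization HBD gave 0.0071 for TETi76, and HBA2 gave 0.031 for both agents against DMSO and 0.041 for the interaction; with a common sum without the globins HBD gave 0.026 for TETi76. With 1 library left out, the ranges that crossed 0 were -0.11 to 0.076 for HBD, -0.13 to 0.42 for HBG1 and -0.14 to 0.26 for HBG2 in the comparison of TETi76 against DMSO; -0.058 to 0.0092 for HBZ, -0.39 to 0.031 for HBD, -0.048 to 0.29 for HBA2, -0.095 to 0.45 for HBG1 and -0.028 to 0.37 for HBG2 in the comparison of ascorbate against DMSO; -0.37 to 0.18 for HBG1, -0.29 to 0.11 for HBG2 and -0.29 to 0.027 for HBA2 in the comparison of both agents against DMSO; -0.21 to 0.13 for HBA2 in the interaction; -0.17 to 0.27 for HBQ1 in the comparison of K18 against K01; -1.35 to 0.086 for HBQ1 in the comparison of TETi76 against DMSO in SIGM5. The cause was not tested. The calls over all genes for the interaction were 38 higher and 27 lower with quantile normalization and 36 and 28 with a common sum, in place of 35 and 45. No scaling moved the median of all genes by over 0.1 on the log2 scale.

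Deviations of same-numbered libraries from their group means correlated at -0.02 to 0.05 over 10 pairs of K562 groups, and at -0.16 in SIGM5. With 2 libraries a group, this cannot show whether same-numbered libraries were handled together. The replicate block changed no globin call: 4 were called for TETi76, 0 for ascorbate, 4 for both agents in each comparison, 1 for the interaction, 6 for K18 and 0 in SIGM5. A crossed block in SIGM5, chosen after seeing the data, called 1291 genes in place of 468 and 0 globins. With 2 libraries a group, about 10 HBD reads in a K18 library and about 6 HBQ1 reads in a library with both agents, small differences in the lowest genes were not detectable at this depth.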
